A study of Homo sapiens with 3 samples.

Results

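The 10 genes described here encode the core of the human microRNA machinery, and the data are the sites on their own transcripts that were found with MATR3. The genes are DROSHA, DGCR8, XPO5, DICER1, AGO1, AGO2, AGO3, TNRC6A, TNRC6B and TNRC6C. They were chosen by gene name in 3 tables of PAR-CLIP clusters, and all 10 were present, among 13557 gene names in those tables. Their clusters numbered 390 of 133088 in replicate 1, 393 of 131679 in replicate 2 and 384 of 124040 in replicate 3. MATR3 (matrin 3) is an RNA-binding protein of the cell nucleus. PAR-CLIP crosslinks a protein to RNA that carries a photoreactive uridine analogue, precipitates the protein with an antibody and reads crosslinked uridines as T-to-C changes. The 3 libraries are biological replicates of wild-type HEK293, an established human embryonic kidney line, labelled as untreated and precipitated with an antibody against MATR3. They form a single group, with no control antibody and no cells lacking MATR3 among the samples. The RNA-seq that the design text mentions was not analysed here.

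A microRNA is cut from a long primary transcript in the nucleus by the Microprocessor, in which DROSHA is the nuclease and DGCR8 the RNA-binding partner. XPO5 (exportin 5) carries the hairpin precursor to the cytoplasm, where DICER1 trims it to a short duplex. An Argonaute protein keeps 1 strand as its guide, and the TNRC6 proteins, known as GW182 proteins, link Argonaute to the deadenylases that act on target mRNAs. Argonaute with its guide mostly pairs with sites in 3′ UTRs of other mRNAs. The clusters below lie in the transcripts of the machinery genes themselves, and they are sites of MATR3, not of Argonaute.

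Each of the 10 genes had a cluster in every replicate, as did 40.7% of all protein-coding genes and 55.2% of those at least as long as DGCR8, the shortest of the 10. With only clusters of at least 3 conversion locations, 3 distinct reads or the median read count, the number was 9 of 10 each time, and TNRC6C was the gene lost. An intron cluster was present in every replicate in 10 of 10, against 36.6% of protein-coding genes and 53.2% of the long ones. A 3′ UTR cluster was present in every replicate in 8 of 10, against 7.15% and 8.37%. DROSHA and TNRC6C were the exceptions, with no 3′ UTR cluster in any replicate for DROSHA and 1 in replicate 3 for TNRC6C. The shares of other genes include unbound genes and were not matched for 3′ UTR length, which reached 17.5 kb in AGO3. Introns held 327, 335 and 326 of the clusters of the 10 genes in replicates 1, 2 and 3, and 3′ UTRs held 45, 42 and 52. Coding sequence held 9, 8 and 4 clusters, 5′ UTRs held 2, 1 and 0, and the remaining 7, 7 and 2 spanned an exon boundary. AGO2 carried the most clusters and reads, DGCR8 was the most densely covered gene, and AGO1, AGO2 and TNRC6B together held 38 of 45, 36 of 42 and 41 of 52 of the 3′ UTR clusters. These counts are not scaled to length, and the 3′ UTRs of the 3 genes are long, at 10.8, 11.9 and 13.1 kb.

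No cluster in the tables has fewer than 4 reads, fewer than 4 of them with T-to-C, or fewer than 2 conversion locations, so weaker sites were not detectable. The 10 genes had 5924, 5225 and 4913 reads, which were 0.409%, 0.393% and 0.362% of the reads in gene-named clusters of replicates 1, 2 and 3. Their median cluster had 11, 9 and 10 reads. In 28.2%, 19.1% and 32.8% of their clusters there were at most 2 distinct reads, so many single clusters rest on few molecules. A gene's normalised reads are its cluster reads scaled to 1000000 gene-named cluster reads in that replicate. They were not corrected for transcript abundance, which these tables do not measure.

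As examples of sites found in every replicate, the stretch covered in all 3 is given for 5 sites in DROSHA, DICER1, DGCR8 and AGO1. Each shares 21 bases or more. AGO2 held 6 of the 13 sites with a base covered in every replicate, and their sequences are not given. The sequences are those deposited with the clusters, written 5′ to 3′ on the strand of the transcript, with T for U. Capitals mark runs of at least 5 pyrimidines (C or T). Stretches over 30 bases are given by their middle 30. In hg38 the positions are chr5:31417268-31417296 (minus strand, intron 30) and chr5:31438783-31438812 (minus strand, intron 23) in DROSHA, chr14:95101062-95101082 (minus strand, intron 21) in DICER1, chr22:20101625-20101654 (plus strand, intron 9) in DGCR8 and chr1:35886878-35886907 (plus strand, intron 1) in AGO1. Introns are counted along the canonical transcript.
DROSHA intron 30: ttcacattggcctgtatgccagTTCCTgc
DROSHA intron 23: ggttcgTTCCTgggaaCTTTTTTTCCCTCT
DICER1 intron 21: cttcatcctgcccaccatttc
DGCR8 intron 9: aatctgtcagaggggaaagtagCTTTTCCC
AGO1 intron 1: gTCCCTgCCTTTgaagaactcagtctaggg
Pyrimidines made up 65.5% and 73.3% of the DROSHA stretches, 81.0% of that in DICER1, 46.7% of that in DGCR8 and 53.3% of that in AGO1. ATCTT, which as RNA is the AUCUU motif that MATR3 is known to prefer, was in 0 of the 5. Whole clusters of the 10 genes held it in 8.39%, so 5 short stretches are too few to judge its absence. Over replicates 1, 2 and 3 these sites had 9, 15 and 12 reads in DROSHA intron 30, 40, 42 and 16 in DROSHA intron 23, and 11, 20 and 9 in DICER1. The DROSHA intron 23 site includes a further cluster outside the stretch in replicates 1 and 2. Its clusters over the stretch had 19, 23 and 16 reads. The DGCR8 site had 8, 25 and 11 reads, and the AGO1 site 22, 10 and 5. No replicate was highest at all 5.

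**Figure D1:**
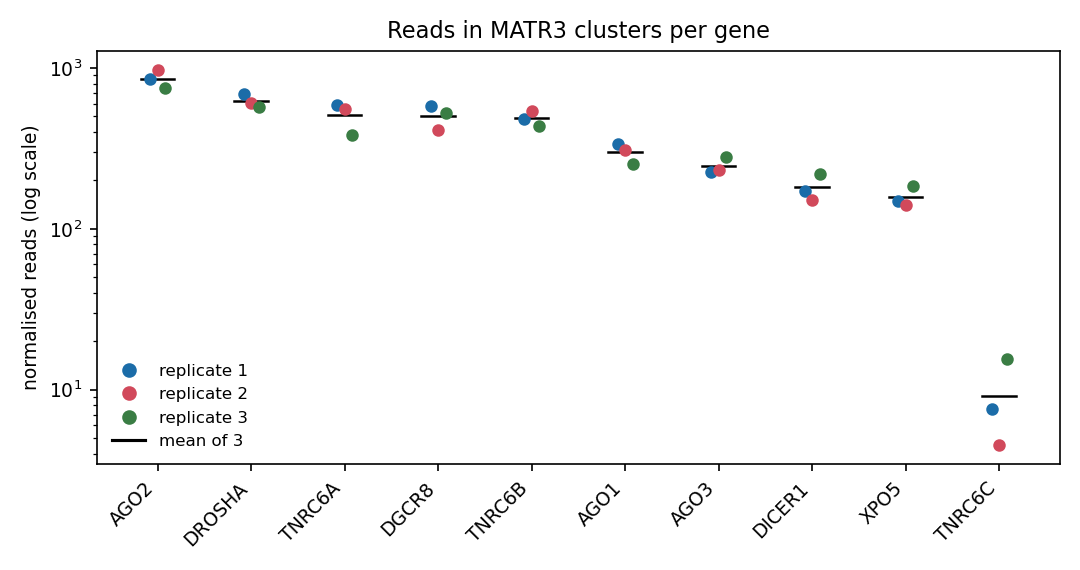
Normalised reads (log scale) in MATR3 clusters of each of the 10 genes, with 1 point per replicate and a bar at the mean of 3. AGO2 lies highest, at 753 to 977 in the 3 replicates, and TNRC6C lies lowest, at 4.52 to 15.5.

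AGO2, whose product is the Argonaute that can cut its target, had 848, 977 and 753 normalised reads in replicates 1, 2 and 3. Its mean of 859 ± 113 (SD, n = 3) ranked 40 among the 11170 protein-coding genes with a cluster. DROSHA had 625 ± 60.0, TNRC6A 511 ± 112, DGCR8 505 ± 86.8 and TNRC6B 486 ± 53.6 normalised reads (SD, n = 3). AGO1 had 299 ± 43.3, AGO3 245 ± 29.4, DICER1 181 ± 33.6, XPO5 158 ± 23.9 and TNRC6C 9.19 ± 5.64 (SD, n = 3). In this order, the replicate ranges of AGO2 and DROSHA did not overlap, nor did those of TNRC6B and AGO1, of AGO3 and DICER1, or of XPO5 and TNRC6C. Neighbours from DROSHA to TNRC6B overlapped, as did AGO1 with AGO3 and DICER1 with XPO5, so their order is not resolved by 3 replicates.

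Among the nuclear factors, DROSHA (chromosome 5, 31400494 to 31532196, minus strand, hg38) had 54, 55 and 58 clusters, which held 1001, 807 and 781 reads. Introns held 52, 54 and 58 of them. The others were 1 coding cluster in replicate 1 and 1 cluster across an exon boundary in each of replicates 1 and 2. Intron 11, with a length of 9.18 kb, held 11, 12 and 14 clusters, which is 13.4 per 10 kb ± 1.66 (SD, n = 3). The DROSHA cluster with most reads lay in this intron in every replicate. It spanned 31500984 to 31501199 in replicate 1 (111 reads), 31502746 to 31503078 in replicate 2 (147 reads) and 31500584 to 31500797 in replicate 3 (76 reads). These 3 do not overlap each other, and each overlapped a smaller cluster of 1 other replicate. Intron 30, with 10.4 kb, followed with 15, 7 and 8 clusters.

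DGCR8, the double-stranded RNA-binding partner of DROSHA (chromosome 22, 20080221 to 20111877, plus strand), is the shortest of the 10 genes at 31.7 kb and had 31, 33 and 31 clusters. Its 100.03 clusters per 100 kb ± 3.65 (SD, n = 3) ranked 31 among the 6395 bound protein-coding genes at least as long as itself, whose median was 8.72. In replicate 1, a single cluster in intron 1, at 20080834 to 20081095, held 279 of the gene's 845 reads, which is 33.0%. The leading clusters of replicates 2 and 3 lay elsewhere, in intron 9, and spanned 20104014 to 20104147 (60 reads) and 20099152 to 20099332 (118 reads). None of the 3 was found in another replicate. Intron 9, the longest at 11.4 kb, held 10, 12 and 12 clusters.

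DGCR8 also hosts the microRNA MIR1306, and its cluster is named after the microRNA in the tables, not after DGCR8. In replicate 2 it spanned 20086031 to 20086100 and held 15 reads, and in replicate 3 it spanned 20086046 to 20086084 and held 5, while replicate 1 listed none. Both overlap the 5′ arm, hsa-miR-1306-5p (chr22:20086072-20086093, plus strand), which lies in coding sequence of DGCR8. A further hairpin in DGCR8, MIR3618 in its 5′ UTR, had 0, 0 and 0 clusters in replicates 1, 2 and 3. DICER1 hosts MIR3173 in an intron. A cluster with 10 reads in replicate 2, at 95137962 to 95137996, overlapped its 5′ arm, hsa-miR-3173-5p (chr14:95137961-95137982, minus strand). The mature sequences are from RefSeq (GRCh38.p14), with the seed, bases 2 to 8, in capitals.
hsa-miR-1306-5p: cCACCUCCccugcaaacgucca
hsa-miR-3173-5p: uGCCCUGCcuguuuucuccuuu
The seeds of these microRNAs differ. Both carry the sequence of a host transcript, so reads there cannot be assigned to the microRNA or to the host.

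XPO5 (chromosome 6, 43522334 to 43576038, minus strand), the export receptor, had 19, 19 and 21 clusters with 217, 186 and 252 reads. They were spread over 17 of its 31 introns, and the highest count for 1 intron was 7 of 49. Its leading clusters, with 25, 31 and 31 reads, lay in introns at 3 separate places, at 43547389 to 43547478, 43575552 to 43575701 and 43572661 to 43572737. DICER1 (chromosome 14, 95086228 to 95158010, minus strand), the cytoplasmic nuclease, had 24, 18 and 27 clusters with 250, 202 and 296 reads. Intron 1, with 23.7 kb or 38.9% of its intron length, held 53.8% of its intron clusters. The leading DICER1 clusters all lay in this intron, and spanned 95153788 to 95153911 (48 reads), 95154130 to 95154208 (31 reads) and 95154490 to 95154560 (34 reads) in replicates 1, 2 and 3. These 3 lie within 1 kb of each other, and none overlaps another. In both genes 3′ UTR clusters were few, at 1, 1 and 3 in XPO5 and 1, 1 and 1 in DICER1.

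The Argonaute genes differed among themselves. AGO2 (chromosome 8, 140520156 to 140635633, minus strand) had 72, 79 and 70 clusters with 1228, 1298 and 1023 reads. Intron 1, with 50.2 kb or 49.7% of its intron length, held 87.3% of the intron clusters, 42, 56 and 46 in the 3 replicates. The leading clusters of replicates 1 and 2 lay in this intron, at 140619697 to 140619928 (65 reads) and 140629943 to 140630234 (123 reads), and that of replicate 3 in the 3′ UTR, at 140526321 to 140526442 (51 reads). AGO1 (chromosome 1, 35869808 to 35930532, plus strand) had 37, 33 and 34 clusters with 489, 409 and 343 reads. Its intron 1, with 4.98 kb, held 8, 10 and 11 clusters, or 19.4 per 10 kb ± 3.07 (SD, n = 3). It also held the leading clusters of replicates 1 and 3, at 35887804 to 35887943 (37 reads) and 35887034 to 35887132 (45 reads), while that of replicate 2 lay in the 3′ UTR, at 35924021 to 35924170 (49 reads). AGO3 (chromosome 1, 35930718 to 36072500, plus strand) begins just downstream of AGO1 and is the longest of the Argonaute genes here, with 31, 31 and 30 clusters and 325, 309 and 379 reads. Intron 5 of AGO3, with 30.8 kb, held 11, 19 and 12 of these, including the leading clusters of 31, 35 and 49 reads at 35975217 to 35975311, 35980522 to 35980729 and 35981660 to 35981727. Per 100 kb of gene, AGO2 had 63.8 clusters ± 4.09, AGO1 57.1 ± 3.43 and AGO3 21.6 ± 0.407 (SD, n = 3). The replicate ranges of AGO1, 54.3 to 60.9, and of AGO2, 60.6 to 68.4, overlapped slightly, and both lay above AGO3 in every replicate.

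Of the GW182 genes, TNRC6A (chromosome 16, 24610209 to 24827632, plus strand) had 61, 60 and 58 clusters with 856, 743 and 521 reads. Introns 2 and 4 held 65 and 46 of its 168 intron clusters. The cluster with most reads was intronic in every replicate, at 24770649 to 24770790 (50 reads), 24758619 to 24758881 (151 reads) and 24819340 to 24819381 (22 reads), and none of them was found in another replicate. TNRC6B (chromosome 22, 40044817 to 40335808, plus strand), the longest of the 10 genes at 291 kb, had 59, 64 and 52 clusters with 702, 718 and 589 reads. Its leading cluster lay near the 3′ end, in the 3′ UTR, in every replicate, and spanned 40333388 to 40333481 (45 reads), 40332214 to 40332539 (120 reads) and 40332089 to 40332130 (41 reads). It was the only one of the 10 genes with a leading 3′ UTR cluster in 3 of 3 replicates. TNRC6C (chromosome 17, 77958703 to 78108822, plus strand) stood far below its paralogs, with 2, 1 and 3 clusters that held 11, 6 and 21 reads. The leading ones had 6, 6 and 9 reads, in introns, at 78060965 to 78061001, 78090626 to 78090671 and 78006726 to 78006760.

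The count of TNRC6C depends on how clusters without a gene name are treated. Within its span in GENCODE release 44, on its own strand, 14, 9 and 12 further clusters with 144, 105 and 102 reads carried no gene name in the tables. They lay between 77959311 and 77999808, in introns by that release, and the 6 named clusters all lay downstream of them. The span was split at the end of the last unnamed cluster, so the cut was set by these same clusters. Up to it, the first 41.1 kb held 2.84 unnamed clusters per 10 kb ± 0.61. The remaining 109 kb, without unnamed clusters by construction, held 0.183 named clusters per 10 kb ± 0.092 (SD, n = 3). Whether the unnamed clusters belong to the TNRC6C transcript was not tested. With the unnamed clusters counted by position, a choice made after seeing the data, TNRC6C had 16, 10 and 15 clusters and 93.7 normalised reads ± 12.04 (SD, n = 3). It then remained the lowest of the 10, with XPO5 next at 158. No other member had unnamed clusters on its strand.

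**Figure D2:**
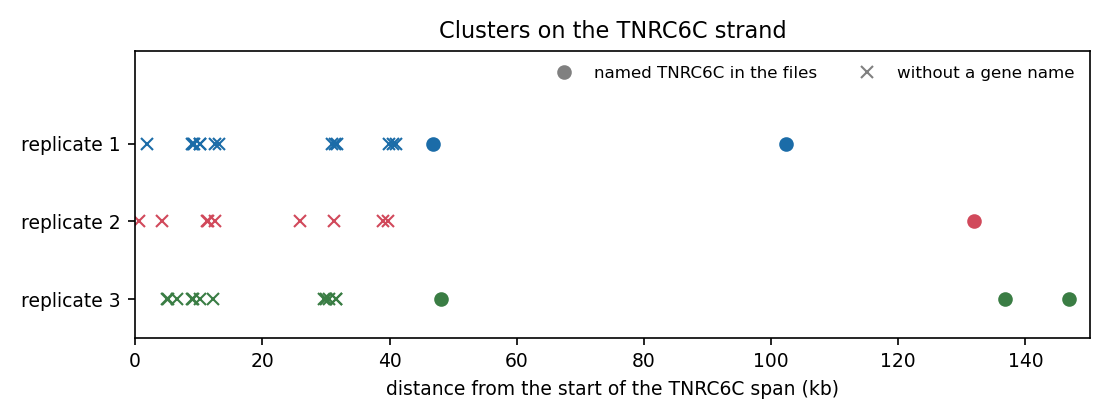
Midpoints of clusters on the TNRC6C strand along the gene span in GENCODE release 44 (kb from its start), by replicate. Filled points are the 6 clusters named TNRC6C in the tables, and crosses are the 35 without a gene name, the last of which ends at 41.1 kb.

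Introns against 3′ UTRs were compared as clusters per 10 kb of annotated class, since introns are far longer. Over the 10 genes, 84.7% ± 0.73 of clusters were intronic and 11.9% ± 1.47 were in 3′ UTRs, a difference of 72.7 percentage points ± 1.64 (SD, n = 3; exact sign-flip p = 0.25). With 3 replicates, 0.25 is the smallest p-value that exact two-sided sign-flip tests can give. By length the order was the opposite, with 6.67 clusters per 10 kb ± 0.74 over 3′ UTRs and 2.93 ± 0.044 over introns (SD, n = 3). The log2 ratio of intron over 3′ UTR density was -1.15, -1.02 and -1.37 in replicates 1, 2 and 3, a 2.28-fold higher density in 3′ UTRs (exact sign-flip p = 0.25). Over all other protein-coding genes, unbound ones included, 3′ UTR density was 2.21 times intron density, with 1.63 and 0.736 clusters per 10 kb. The difference in log2 ratio between the 10 genes and the others was -0.036 ± 0.089 (SD, n = 3; exact sign-flip p = 0.5), within the spread between replicates. Its sign depended on the setting, with 0.32 without AGO2 and 0.31 with lengths of canonical transcripts, both in the direction of relatively fewer 3′ UTR clusters in the 10 genes. The share of clusters in 3′ UTRs was compared with all other gene-named clusters, which include names that matched no protein-coding symbol. It was 6.11 percentage points ± 1.08 higher in the 10 genes (SD, n = 3; exact sign-flip p = 0.25), in 3 of 3 replicates. Without AGO2 the difference was 1.63, 2.72 and 4.54 percentage points in replicates 1, 2 and 3, a mean of 2.96 ± 1.47 (SD, n = 3; exact sign-flip p = 0.25).

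**Figure D3:**
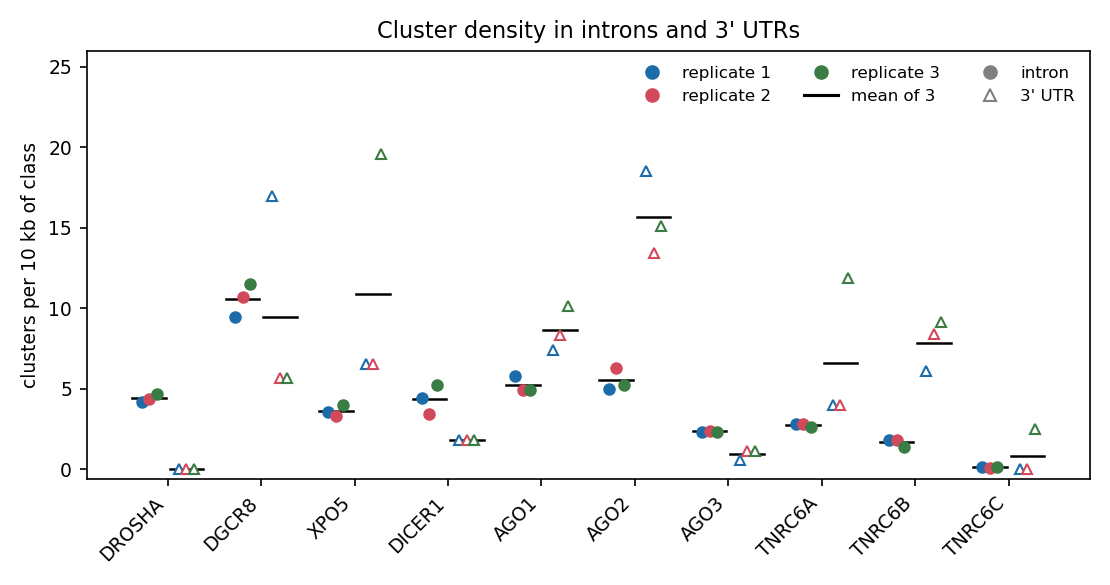
Clusters per 10 kb of annotated intron (filled circles) and 3′ UTR (open triangles) in each gene, with 1 point per replicate and a bar at the mean of 3. With lengths over all transcripts, AGO1, AGO2 and TNRC6B have higher density in the 3′ UTR in every replicate, and DICER1 and AGO3 in introns. DROSHA has no 3′ UTR cluster, in a 3′ UTR of 938 nt that is too short to resolve its order.

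By gene the direction differed. In AGO2, 22, 16 and 18 clusters lay in a 3′ UTR of 11.9 kb, which is 15.7 per 10 kb ± 2.57, against 5.52 ± 0.70 in introns (SD, n = 3). In TNRC6B, 8, 11 and 12 clusters lay in a 3′ UTR of 13.1 kb, which is 7.87 per 10 kb ± 1.59, against 1.69 ± 0.28 in introns (SD, n = 3). In AGO1, 8, 9 and 11 clusters lay in a 3′ UTR of 10.8 kb, which is 8.62 per 10 kb ± 1.41, against 5.21 ± 0.49 in introns (SD, n = 3). With lengths over all transcripts, these 3 genes had the higher density in the 3′ UTR in 3 of 3 replicates. The canonical introns of AGO1 are shorter than the 46.7 kb used, yet held all 73 intron clusters. Its order in replicate 1, 7.39 per 10 kb in the 3′ UTR against 5.78 in introns, depends on the lengths used. AGO3 has the longest 3′ UTR of the 10 genes, 17.5 kb, and it held 1, 2 and 2 clusters. Its 0.952 per 10 kb ± 0.33 lay below the 2.35 ± 0.048 of its introns in 3 of 3 replicates (SD, n = 3).

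DICER1 had 1.84 clusters per 10 kb of 3′ UTR, with 1 cluster in each replicate, against 4.37 ± 0.91 in introns (SD, n = 3). DROSHA has a short 3′ UTR of 938 nt with no cluster, against 4.41 per 10 kb ± 0.25 in introns (SD, n = 3). At that intron density so short a 3′ UTR would often hold no cluster, so its order is not resolved. With lengths over all transcripts, XPO5 and TNRC6A were higher in the 3′ UTR in 3 of 3 replicates. That rests on 1 to 3 clusters per replicate in 3′ UTRs of 1.53 kb and 2.52 kb. The canonical introns of TNRC6A are shorter than the 204 kb used, yet held all 168 intron clusters. Its order in replicates 1 and 2 depends on the lengths used. DGCR8 went either way, with 3, 1 and 1 clusters in 1.76 kb. Of the 10 differences, 8 had an exact sign-flip p = 0.25 and those of DGCR8 and TNRC6C had p = 1, and the lowest value after Benjamini-Hochberg adjustment over the 10 was 0.312.

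**Figure D4:**
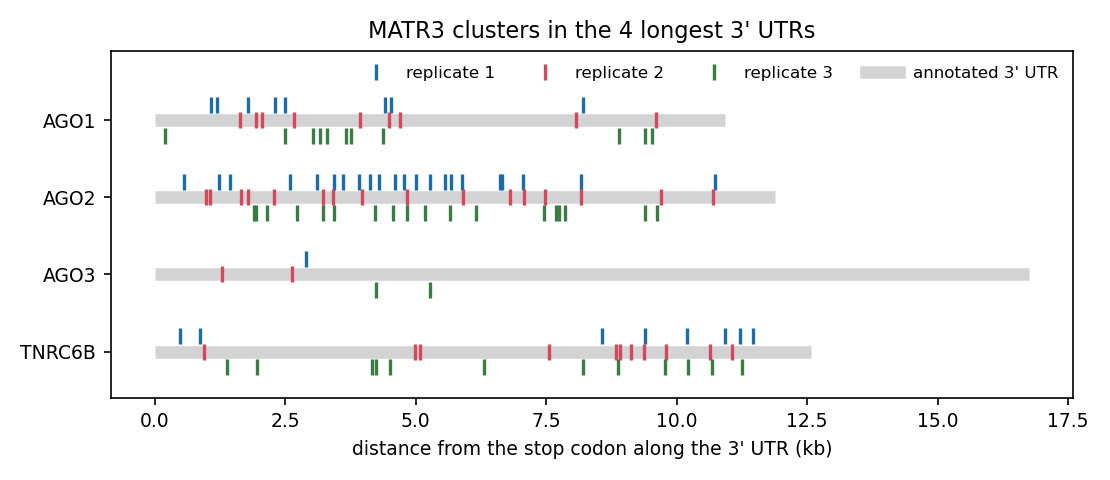
Midpoints of 3′ UTR clusters by distance from the stop codon (kb) in the 4 longest 3′ UTRs, with replicates in colour and the canonical 3′ UTR in grey. Clusters in AGO2 are spread over most of the 3′ UTR, those in AGO1 lie mostly in its proximal part with a gap in the middle, those in AGO3 all lie within 5279 nt of the stop codon, and most in TNRC6B lie in the distal part.

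Within these 3′ UTRs the clusters were placed differently. The 56 AGO2 clusters of the 3 replicates lay from 563 to 10729 nt after the stop codon, with a median at 40.4% of the canonical 3′ UTR. The 28 AGO1 clusters lay from 206 to 9599 nt, with a median at 31.9%. The 31 TNRC6B clusters lay from 494 to 11463 nt, with a median at 70.6%. The 5 AGO3 clusters lay from 1296 to 5279 nt, so that none lay beyond 31.5% of its 16755 nt. Reads in 3′ UTR clusters numbered 419, 340 and 324 in AGO2, 147, 260 and 182 in TNRC6B, 119, 122 and 104 in AGO1, and 6, 14 and 27 in AGO3.

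Recurrence was measured as the share of clusters that overlap a cluster of at least 1 other replicate by 1 nt or more on the same strand. Of the clusters of the 10 genes, 25.1%, 27.5% and 27.3% were found again in this way, against 21.5%, 21.2% and 22.5% of all gene-named clusters. The difference from clusters of other genes was 4.93 percentage points ± 1.33 (SD, n = 3; exact sign-flip p = 0.25), above 0 in 3 of 3 replicates. It was 1.66 ± 1.04 when an overlap had to cover 50% or more of both clusters (SD, n = 3). Densely covered genes overlap more often by position alone, so the clusters were also moved by 1000 nt up and down the chromosome. Moved clusters of the 10 genes overlapped in 16.3% ± 1.35 and those of other genes in 11.1% ± 0.33 (SD, n = 3). The excess of found over moved was 10.4 percentage points ± 1.86 in the 10 genes (SD, n = 3; exact sign-flip p = 0.25). It depended on the distance, with 4.29 ± 1.58 after moving by 200 nt and 16.6 ± 2.48 after moving by 5000 nt (SD, n = 3). At 1000 nt it differed from that in other genes by -0.293 ± 2.13 (SD, n = 3; exact sign-flip p = 1), within the spread between replicates. When replicate 2 was left out, so that a cluster could be found in only 1 other replicate, the excess was 3.94 and the difference from other genes 1.82 percentage points. Without replicate 1 they were 7.79 and 4.45, and without replicate 3 they were 7.41 and 3.37.

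**Figure D5:**
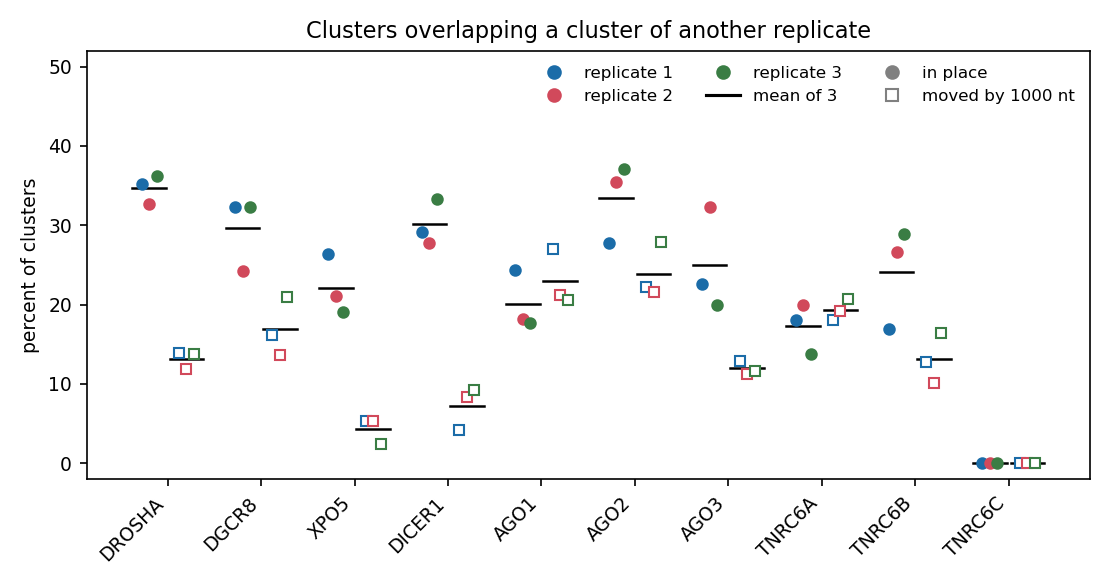
Percent of each gene's clusters that overlap a cluster of another replicate, in place (filled circles) and after moving by 1000 nt (open squares), with 1 point per replicate and a bar at the mean of 3. In DROSHA, DICER1 and XPO5 the values in place lie far above the moved ones, and in AGO1 and TNRC6A they do not.

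In DROSHA, 19 of 54, 18 of 55 and 21 of 58 clusters were found again. Its 34.7% ± 1.79 stood against 13.2% ± 1.17 after moving (SD, n = 3). DICER1 had 30.1% ± 2.89 against 7.25% ± 2.71, and XPO5 22.1% ± 3.75 against 4.30% ± 1.66 (SD, n = 3). In AGO2, 33.5% ± 4.99 were found again, against 23.9% ± 3.47 after moving, and in DGCR8 29.6% ± 4.63 against 16.9% ± 3.73 (SD, n = 3). AGO3 and TNRC6B had excesses of 13.0 ± 6.94 and 11.0 ± 6.21 percentage points (SD, n = 3). In AGO1 the found share was below the moved share in 3 of 3 replicates, by -2.89 percentage points ± 0.17, and TNRC6A had -2.02 ± 4.24 (SD, n = 3). In those 2 genes mean overlap in place was thus no higher than at a distance of 1000 nt. No cluster named TNRC6C was found again, of 2, 1 and 3. In all, 7 of the 10 genes were above 0 in 3 of 3 replicates, and the lowest Benjamini-Hochberg value over the 10 exact sign-flip tests was 0.312. The share of other genes above 0 is not given here, so the count does not set these genes apart. Pooled over clusters, the excess differed from that of other genes by -0.293 percentage points ± 2.13 (SD, n = 3).

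By class, 26.8% ± 1.30 of intron clusters and 26.4% ± 6.26 of 3′ UTR clusters of the 10 genes were found again (SD, n = 3). These differed by -0.463 percentage points ± 7.12, within the spread (SD, n = 3; exact sign-flip p = 1). Moved 3′ UTR clusters overlapped in 21.8% ± 2.40, so their excess was 4.54 ± 7.92, with 5.56, 11.9 and -3.85 in replicates 1, 2 and 3. For introns the excess was 11.2 ± 1.53, above 0 in 3 of 3 replicates (SD, n = 3; exact sign-flip p = 0.25).

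Clusters that overlap were joined across replicates into 995 sites in the 10 genes. Of these, 856 held clusters of 1 replicate, 119 of 2 and 20 of all 3, and in 13 of the 20 at least 1 base was covered in every replicate. AGO2 had 8 of the 20 in 178 sites, DROSHA 3 in 134 and TNRC6A 3 in 162. AGO1 had 2 in 92, DGCR8 2 in 80, AGO3 1 in 79 and DICER1 1 in 58. TNRC6B had none in 154 sites, TNRC6C none in 6 and XPO5 none in 52. No such counts for other genes are given here. Introns held 15 of the 20 and 3′ UTRs 3, beside 84.7% and 11.9% of all clusters of the 10 genes. The 3′ UTR sites were 1 in AGO1, spanning 35923969 to 35924171 (37, 49 and 11 reads), and 2 in AGO2, spanning 140527184 to 140527300 (26, 12 and 22 reads) and 140528595 to 140528641 (9, 16 and 9 reads). The other 2 touched coding sequence. That in TNRC6A lay at 24823500 to 24823641 with 36, 19 and 9 reads, and that in DGCR8 crossed an exon boundary at 20106653 to 20106828 with 40, 11 and 5 reads. Among intron sites, AGO2 at 140619667 to 140619928 had the most reads, with 65, 18 and 37. DROSHA at 31438730 to 31438989 followed, with 40, 42 and 16 over the whole site, which contains the second sequence above.

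Clusters of the 10 genes were much like those of other genes in signal and composition. Reads with T-to-C made up 84.0% ± 2.50, against 86.1% ± 0.63 in other genes (SD, n = 3). The difference was -1.98, -4.08 and -0.164 percentage points in replicates 1, 2 and 3 (exact sign-flip p = 0.25). Per T position, conversion differed by -0.056 percentage points ± 0.36 (SD, n = 3; exact sign-flip p = 1). ATCTT was in 8.39% ± 1.62 of clusters, against 9.34% ± 0.40 in other genes, a difference within the spread (SD, n = 3; exact sign-flip p = 0.5). Pyrimidines made up 56.5% ± 1.35 of bases, against 57.2% ± 0.86, and G or C 48.0% ± 0.65, against 48.0% ± 0.75 (SD, n = 3). Runs of at least 5 pyrimidines were in 77.4% ± 4.20 of clusters, against 78.7% ± 1.24 (SD, n = 3). Within the 10 genes, reads with T-to-C made up 76.4% ± 2.45 over 3′ UTR clusters and 85.2% ± 2.58 over intron clusters, and in other genes 78.3% ± 0.77 and 87.5% ± 0.61 (SD, n = 3).

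A list of 27 other genes of microRNA processing, decay or silencing was read in the same way. Of these, 24 had a cluster in every replicate, 2 in 2 replicates and 1 in none, against 40.7% of all protein-coding genes with one in every replicate. In stricter sets the 24 became 22 (median read count), 21 (3 conversion locations) and 20 (3 distinct reads). By normalised reads SND1, a nuclease reported in silencing complexes, led with 1781 ± 230, followed by XRN2, a nuclear exonuclease, with 593 ± 123 and PAN3, a deadenylase subunit, with 434 ± 23.9 (SD, n = 3). LIN28A, which blocks let-7 maturation, was the gene without a cluster. AGO4, the remaining Argonaute gene, lies upstream of AGO1 on chromosome 1 and had 2, 1 and 0 clusters, far fewer than AGO1, AGO2 and AGO3. TRIM71, a known let-7 target, had 5, 5 and 4 clusters in its 3′ UTR. No other gene of the list had more than 3 clusters in its 3′ UTR over the 3 replicates together.

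Over intron and 3′ UTR reads in each replicate, 6 values on the scale of log2(normalised reads + 1), the protein-coding genes near AGO2 included ARIH1 at a Euclidean distance of 1.68 and SLC7A1 at 1.83. ARIH1 had means of 743 normalised reads in introns and 347 in the 3′ UTR, and SLC7A1 had 1130 and 285, against 598 and 261 in AGO2. All values of this comparison come from the same 3 libraries.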

How the data were processed

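MATR3 PAR-CLIP was done in 3 biological replicates of HEK293 cells. For each replicate the authors deposited a table of clusters. By the file headers and values, the deposited reads, distinct reads, conversion locations and conversion events are raw counts. The deposited T-to-C share is a fraction from 0 to 1, and the deposited conversion specificity, on a log10 scale, was not used. The build is hg38, per the submitters' processing notes. The aligner, cluster caller and annotation release are not given in the sources used here. The deposited sequences of 390, 393 and 384 clusters of the 10 genes all equalled hg38. Clusters were called per replicate, and reads can include copies of 1 molecule.

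Class and gene name are those of the tables. Class lengths came from all transcripts in GENCODE release 44, where 953 of 988 intron clusters and 139 of 139 3′ UTR clusters kept their class. Of 13557 gene names, 11180 matched 1 of 20020 protein-coding symbols, some through older symbols in RefSeq. Overlaps used bedtools 2.31.1. Tests were exact two-sided sign-flip tests over replicates, and the overlap code was checked on simulated data. The 10 genes and the list of 27 were chosen with earlier results of these data known. All 10 genes were named, with their leading clusters, their sites in all replicates, the 3 leading and the unbound genes of the list, and the 3 genes nearest to the leading member, of which 1 is not reported here. Introns, AGO4 and TRIM71 were singled out after their values were seen. Alternatives were stricter cluster sets, other overlaps, distances, weights, classes and lengths, and leaving out each replicate. The SD over 3 replicates includes the counting error.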

Additional observations from a re-analysis of the deposited data

Results flagged for a closer look

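Clusters inside the 10 genes but under another name, or none, lie outside the comparisons above and were read separately. There is no control library, and as any listed cluster has 4 reads or more, it exceeds the limit of 3 reads set for a count of 0. Clusters without a gene name on the TNRC6C strand held 117 reads on average per replicate, 144, 105 and 102, and 6 of the 35 were found in another replicate. Clusters named MIR1306 within DGCR8 held 6.67 reads on average, 0, 15 and 5 in replicates 1, 2 and 3. The cluster named MIR3173 within DICER1 held 3.33 reads on average, 0, 10 and 0.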

How the results depend on the processing

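No paired analysis was possible because there is only 1 group of samples. When only clusters with the median read count or more, 3 or more conversion locations or 3 or more distinct reads were kept, density over the 10 genes was 18.8, 17.6 and 22.5 clusters per 100 kb in place of 30.7, by construction, since clusters were removed. It was 31.7 with the unnamed TNRC6C clusters added. Normalised reads of the 10 genes together were 4307 with 3 conversion locations and 4159 with 3 distinct reads, in place of 3880. The difference in recurrence of 3′ UTR and intron clusters, -0.463 percentage points, turned to 8.36, 5.27 and 0.503 in the 3 stricter sets and to 1.10 with overlaps covering 50% or more of both clusters, and ranged from -3.89 to 4.11 when each replicate was left out, with 4.11 without replicate 3. The difference in conversion per T position turned to 0.088, 0.183 and 0.149 in the 3 stricter sets and ranged from -0.185 to 0.149, with 0.149 without replicate 2. The difference in log2 density ratio between the 10 genes and others, -0.036, turned to 0.023 with 3 conversion locations, 0.093 with classes from the reference annotation, 0.31 with canonical lengths, 0.015 with the unnamed clusters and 0.32 without AGO2. For changes without a stated construction, the cause was not tested. The excess of found over moved clusters, 10.4 percentage points, ranged from 3.94 without replicate 2 to 7.79 without replicate 1. A cluster then has 1 other replicate to be found in, whichever is left out. Why the excess was lowest without replicate 2 was not tested. The excess was 4.29 and 16.6 with clusters moved by 200 and 5000 nt, 16.7 with 3 conversion locations and 7.19 with overlaps of 50%. Normalised reads of TNRC6C, 9.19, were 2.83, 3.41 and 2.79 in the 3 stricter sets. The other alternatives for these results kept their direction, though not always their size. The unnamed clusters and the removal of AGO2 were chosen after seeing the data. Depth limits single sites, since the median cluster of the 10 genes has 3.5, 4 and 3 distinct reads in replicates 1, 2 and 3.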
